A study of Homo sapiens with 8 samples.

Results

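The response of MIA PaCa-2 cells to silencing of HOXB7 was read from 4 arrays of the 8 in the series. MIA PaCa-2 is an established line from a primary pancreatic ductal adenocarcinoma. Its 2 treated arrays hold RNA of cells that had received 10 nM HOXB7 siRNA and were harvested at 48 hours, and its 2 control arrays hold RNA of parental cells. Capan-1, a line from a hepatic metastasis, was arrayed in the same way on 4 arrays and was used here for the spread between replicates and for comparison. All 4 MIA PaCa-2 arrays lie on a single slide of one-color Agilent arrays, with the siRNA samples at adjacent positions and the parental samples at the next positions. Slide position and treatment therefore cannot be told apart. No array holds cells given a scrambled siRNA, so the effect of transfection itself is part of every difference, and the labels do not name the duplex. The labels do not say whether replicates were separate cultures, and the p-values measure only the spread between these samples, which may be technical.

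HOXB7 encodes a homeodomain transcription factor that helps to set position along the body axis in the embryo. Homeodomain proteins bind short AT-rich DNA elements, often together with TALE partners such as PBX and MEIS, and can activate or repress their targets. HOXB7 is expressed in many carcinomas, where growth factors, among them FGF2, have been described as its targets. Duplex RNA delivered by lipid transfection is loaded into the RNA-induced silencing complex, and foreign duplex RNA can also be sensed by receptors such as TLR3 and by interferon-induced enzymes.

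A level below is the log2 intensity of a probe minus the 75th percentile of its array, so a level of 0 lies at that percentile. Levels of the replicate arrays correlated across probes with r = 0.995 for the siRNA pair and r = 0.9948 for the parental pair, and with r between 0.9901 and 0.9941 between the groups. Genes are no independent replicates, so these values describe the arrays only. Keratins KRT8, KRT18, KRT19 and KRT7 were well above background on all 4 arrays, as were VIM and ZEB1, while EPCAM, CDH1 and FN1 were on none of them. VIM, a mesenchymal filament, had levels between 7.87 and 8.31, with both siRNA arrays above both parental arrays. Of the 6 epithelial markers 4 were measured above background, and of the 5 acinar markers on the array 1 was. MTAP and CDKN2B, which lie in the region deleted in this line at 9p21, were above background on 1 array and on none, but a CDKN2A probe was above it on all 4. The summed level of the 4 ductal markers was 0.95 and 1.05 on the siRNA arrays against 1.39 and 1.51 on the parental arrays, with CFTR above background on none and MUC1 lower after siRNA on its bright probe. All 5 leukocyte markers gave signal above background, with a summed level of 2.35 and 2.21 against 2.32 and 2.25. Its members went different ways, as CD68 had 0.41 and 0.58 against -0.12 and -0.29, CD3E -1.26 and -2.26 against -3.05 and -3.09, and CD14 1.60 and 1.40 against 1.87 and 1.81. The part of such markers in the results was not tested.

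Of 19172 genes tested, 215 were lower after siRNA, which is 1.12% of them, and 225 were higher, which is 1.17%. WDR90 had a probe past the threshold in each direction, which brings the share called in any direction to 2.30%. A gene counted as called when at least 1 probe passed limma's test at a Benjamini-Hochberg adjusted p under 0.05. Its probes numbered 222 lower and 233 higher, and no called probe had overlapping groups. The median log2 fold change was -0.78 among the lower and 0.78 among the higher probes. Only 45 lower and 63 higher called probes changed by more than 1 on the log2 scale, and the smallest called change was 0.46.

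The number of calls rested on the Capan-1 arrays, because 2 arrays against 2 leave little information on the spread. When any single Capan-1 array was left out, only OR10R3P remained lower, and only IFI27 and LOC401098 remained higher. Fitted on the 4 MIA PaCa-2 arrays alone, limma called 0 genes in each direction, with 1908 lower and 2160 higher probes at an unadjusted p under 0.05. By the interval that holds 99% of the ratios between both parental arrays, 55 genes were lower and 66 higher. Of these, 51 lower and 45 higher genes were also called by limma. With 2 arrays in each group, exact permutation of the labels cannot give a single gene a p below 0.33.

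**Figure D1:**
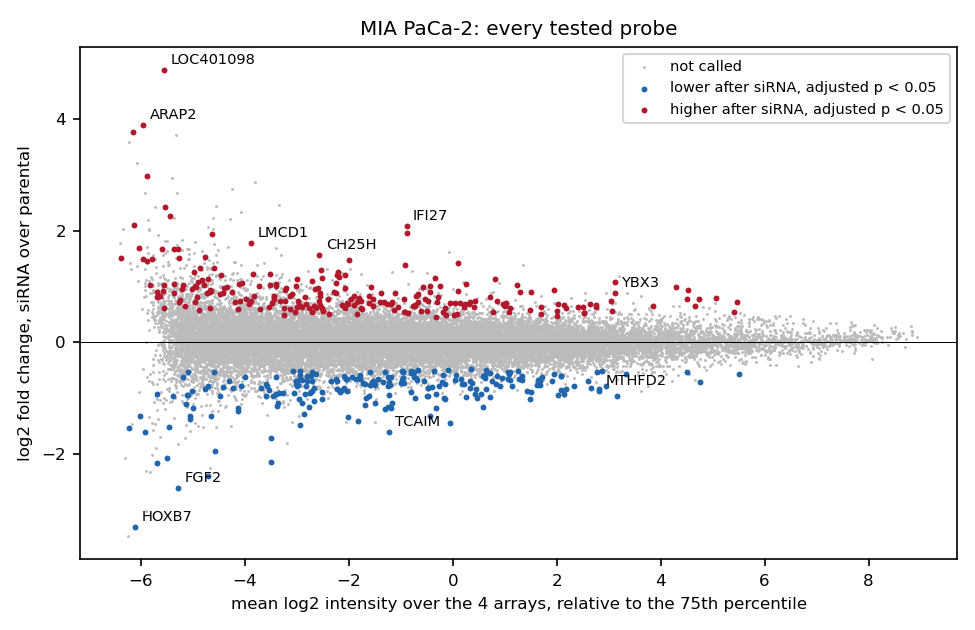
Each point is 1 of the 23719 tested probes in MIA PaCa-2, with the mean log2 level over the 4 arrays on the horizontal axis and the log2 fold change of siRNA over parental cells on the vertical axis. Blue points (222) were lower and red points (233) higher at an adjusted p under 0.05, and the largest values lie at the dim end, where LOC401098, ARAP2 and HOXB7 are found, while IFI27 stands apart at a middle level.

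HOXB7, the target of the siRNA, had a level of -7.76 and -7.78 on the siRNA arrays against -4.82 and -4.09 on the parental arrays. Its single probe (hg18 chr17:44039988-44040047) was well above background on neither siRNA array, and dim but well above it on both parental arrays. The HOXB7 level was therefore at least 3.16-fold lower after siRNA. The limma adjusted p of 0.0173 belongs not to this bound but to the fitted log2 fold change of -3.32, which uses the dim siRNA signals. With normexp, another background correction that adds an offset to every spot, the log2 fold change was -0.098. Lower signal from fewer expressing cells and from less RNA per cell cannot be told apart in these samples.

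Other HOX genes, the homeodomain family to which the target belongs, were next examined. Of 24 tested HOX genes, HOXB7, the target itself, and HOXC8 fell and none rose, against 1.12% lower among all tested genes. HOXC8, a member of the HOXC cluster with roles in thoracic patterning, had levels of -2.68 and -2.66 against -1.44 and -1.24. These arrays did not overlap, and its log2 fold change of -1.34 ± 0.11 (SE, n = 2 arrays per group) passed the test with an adjusted p of 0.0173. In Capan-1 the HOXC8 value was -0.78, and the difference between the lines did not pass (adjusted p = 0.299). Close to the threshold were HOXA2 at -0.65, HOXA13 at -0.62 and HOXA11 at -0.53, with adjusted p-values of 0.055, 0.0529 and 0.0546. Neighbors of HOXB7 in its own cluster had -0.19 for HOXB6, -0.19 for HOXB8 and -0.13 for HOXB9, none of them past the test. The median of the HOX genes lay 0.18 below that of all tested genes (-0.18), and this value stayed between -0.23 and -0.058 under 20 alternative settings. Both siRNA arrays were below both parental arrays for 11 of the 24 HOX genes, against 23.3% of all tested genes, and above them for 4, against 28.2% of all. Of 11 TALE partner genes tested, which include the PBX and MEIS families, none was called.

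Interferon-stimulated genes included the largest rise among the genes detected on every array, but not a rise of the group. IFI27, an interferon-inducible protein of membranes, had a level of 0.16 and 0.16 on the siRNA arrays against -1.98 and -1.88 on the parental arrays. The groups were far apart and the siRNA arrays equal to 2 decimals. Its log2 fold change was 2.09 ± 0.098 (SE), with an adjusted p of 0.00564 that ranged from 1.18e-05 to 0.107 under 20 alternative settings, 18 of which kept it past the threshold. IFI6, a mitochondrial protein of the same gene family, rose with levels of 1.04 and 1.23 against 0.27 and 0.35, a log2 fold change of 0.82 and an adjusted p of 0.0396. It did not pass without scaling between arrays (limma, adjusted p = 0.276) or with scaling to the spike-in probes (0.126). Of the 40 tested interferon-stimulated genes only IFI27 and IFI6 were called, which is 5%, against 2.30% of all tested genes. ISG15, a ubiquitin-like modifier, had a log2 fold change of -0.32, IFIT1, which binds foreign RNA, had -0.15, MX1 had 0.022 and RSAD2 had 0.061. OASL at -0.46 and OAS3 at 0.50 lay on opposite sides, with adjusted p-values of 0.0584 and 0.0716. In Capan-1 IFIT1 had 1.22 and OASL 0.87, and the difference between the lines did not pass for either (adjusted p = 0.0909 for each). The median of the group was 0.091 below that of all genes (-0.091), between -0.11 and -0.053 under the alternatives. TLR3, the endosomal receptor for double-stranded RNA, fell with levels of -4.70 and -4.94 against -3.95 and -4.08 (log2 fold change -0.80, adjusted p = 0.0406), the only one of 26 tested genes of RNA sensing and interferon signaling to be called. The TLR3 log2 fold change was -0.054 with normexp (adjusted p = 0.74), which ended the call. None of the 20 tested MHC class I genes was called.

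To show what the called and uncalled members of this group share, the 250 bases before the annotated start of 4 genes are printed with matches to the core of the interferon-stimulated response element in capitals. The core was searched on either strand as GAAA, any 2 bases and GAAA again, and overlapping matches were kept. They are RefSeq windows on GRCh38.p14, read 5′ to 3′ on the strand of the gene.
IFI27, which rose (chr14:94110486-94110735, plus strand): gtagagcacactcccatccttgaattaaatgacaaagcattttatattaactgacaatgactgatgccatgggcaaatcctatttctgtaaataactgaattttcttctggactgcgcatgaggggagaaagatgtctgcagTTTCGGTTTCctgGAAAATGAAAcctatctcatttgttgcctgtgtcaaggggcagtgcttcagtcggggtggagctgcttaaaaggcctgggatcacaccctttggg
IFI6, which rose (chr1:27672193-27672442, minus strand): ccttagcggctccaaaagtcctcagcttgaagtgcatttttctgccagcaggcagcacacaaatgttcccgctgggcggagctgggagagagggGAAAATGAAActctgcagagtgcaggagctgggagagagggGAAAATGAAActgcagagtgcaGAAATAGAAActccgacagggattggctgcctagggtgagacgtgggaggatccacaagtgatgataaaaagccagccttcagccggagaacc
ISG15, not called (chr1:1013247-1013496, plus strand): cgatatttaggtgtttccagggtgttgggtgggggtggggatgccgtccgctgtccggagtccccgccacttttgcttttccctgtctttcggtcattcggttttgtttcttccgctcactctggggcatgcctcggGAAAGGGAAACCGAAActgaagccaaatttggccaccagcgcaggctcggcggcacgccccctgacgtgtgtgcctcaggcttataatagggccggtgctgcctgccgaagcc
IFIT1, not called (chr10:89392373-89392622, plus strand): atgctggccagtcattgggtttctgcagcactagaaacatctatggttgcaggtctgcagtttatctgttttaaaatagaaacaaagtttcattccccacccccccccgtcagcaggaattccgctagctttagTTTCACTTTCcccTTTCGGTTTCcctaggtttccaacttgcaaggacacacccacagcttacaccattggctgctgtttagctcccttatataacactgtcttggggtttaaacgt

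Every one of these 4 windows holds at least 2 matches, at positions -108 and -95 from the start in IFI27 and at -116 and -103 in IFIT1. The core was present in the window from 250 bases before to 50 after the start in 23 of the 34 tested interferon-stimulated genes with a window (67.6%), against 2.94% of the 11942 tested genes with one. It was present in 4 of 150 lower genes (2.67%) and 5 of 138 higher genes (3.62%). The homeodomain core TAATTA was found in 2.00% of lower, 2.90% of higher and 2.43% of all tested genes, and TAATTG in 7.33%, 6.52% and 4.62%, each on either strand. TGATTTAT, a site for HOX and PBX proteins, was found in 2 lower genes, in 0 higher genes and in 51 of all tested genes. No motif set was searched beyond these letters, and a match is no evidence of binding.

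FGF2, fibroblast growth factor 2, showed the largest fall among genes detected on every array. The brighter of its probes had levels of -4.39 and -4.75 against -2.41 and -2.42, with a log2 fold change of -2.15 ± 0.15 (SE) and an adjusted p of 0.0167. Its other probe overlaps the first (hg18 chr4:124038767-124038826 and chr4:124038781-124038840), so both read almost the same stretch. The dimmer FGF2 probe was well above background on neither siRNA array and at least 4.42-fold lower. Its limma adjusted p of 0.0289 belongs to the log2 fold change fitted to those dim signals, not to the bound. Of 6 tested genes that earlier work has described as targets of HOXB7, FGF2 fell, CXCL8 rose and 4 were not called. Among all tested genes 1.12% were lower and 1.17% higher. With normexp the FGF2 log2 fold change was -0.44 and still passed (adjusted p = 0.0325).

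Next in size were genes of varied function. ANKRD2, a muscle ankyrin repeat protein, had levels of -4.27 and -4.42 against -2.53 and -2.74 (log2 fold change -1.71, adjusted p = 0.0186). CLIC3, a chloride intracellular channel protein, had -1.15 and -1.05 against 0.21 and 0.26 (-1.33, adjusted p = 0.0172). RAB26, a small GTPase of secretory vesicles, had -1.99 and -1.82 against -0.56 and -0.85 (-1.20, adjusted p = 0.0238). Replicates of these genes lay closer to each other than to the other group. Absence of overlap between the groups was a condition of their selection. TMEM64 fell by 1.29 on the log2 scale and NPSR1, a neuropeptide receptor, by 1.17. LOC284561, LOC728392 and ENST00000334003, which have no described function here, complete the list together with genes described further on by probe. With normexp ANKRD2 (adjusted p = 0.052), TMEM64, NPSR1, LOC284561, LOC728392 and ENST00000334003 no longer passed.

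LMCD1, a LIM domain cofactor, followed IFI27 among the named coding genes that rose and were detected on all 4 arrays. Its levels were -2.91 and -3.05 on the siRNA arrays against -4.86 and -4.66 on the parental arrays (log2 fold change 1.78 ± 0.11, adjusted p = 0.0159). CH25H, which makes 25-hydroxycholesterol and is also induced by interferon, had -1.72 and -1.85 against -3.28 and -3.40 (1.56 ± 0.15, adjusted p = 0.0213). DUSP5, a phosphatase that inactivates nuclear ERK, had -1.57 and -1.58 against -2.98 and -2.68 (1.26 ± 0.12, adjusted p = 0.0208). In all 3 genes the siRNA arrays were closer to each other than to any parental array. Passing the test favors such values, so this is a description. LYZL1, a lysozyme-like protein, rose by 1.22. Noncoding RNAs were frequent among the 15 largest rises, with LINC02817 at 1.96, LOC145845 at 1.47, D21S2088E at 1.43, ZFAT-AS1 at 1.29 and VESTAR at 1.21. LINC02817 had levels of 0.22 and -0.012 against -1.76 and -1.96. LOC100134420 rose by 1.20 but did not pass with normexp, and 3 further probes among the 15 have no gene name in the sources used here.

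**Figure D2:**
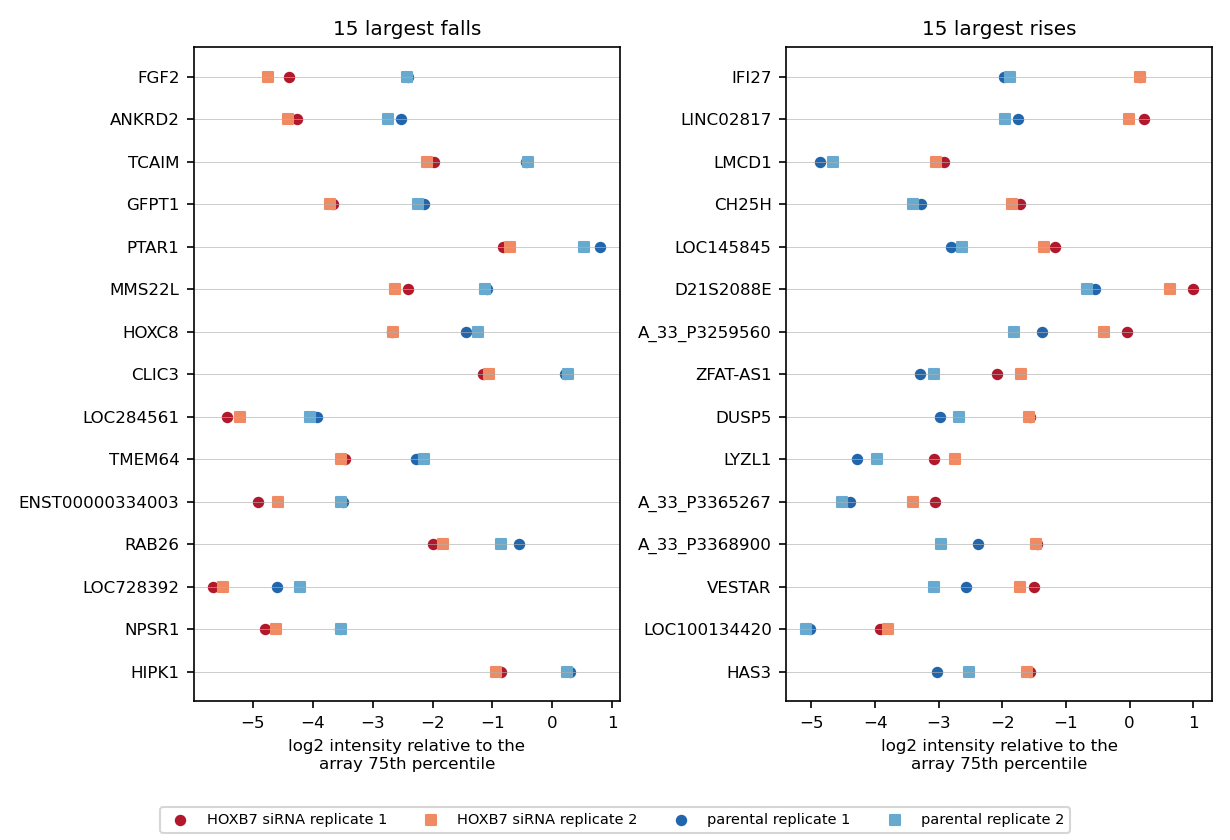
Levels of the 15 largest falls and the 15 largest rises among called genes detected on all 4 MIA PaCa-2 arrays, with log2 intensity relative to the 75th percentile of the array on the horizontal axis and 1 point per array. Red and orange mark the siRNA arrays and blue the parental arrays. Genes were selected to have the siRNA points on one side of both parental points, and their log2 fold changes run from FGF2 at -2.15 to IFI27 at 2.09.

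Some called genes were detected in a single group, and only a bound can be given for them. Their adjusted p-values belong to log2 fold changes that limma fitted to the dim signals, not to the bounds. LOC401098 had levels of -3.24 and -2.98 after siRNA and was not above background on the parental arrays, so it was at least 7.68-fold higher (adjusted p = 0.00564). ARAP2, a GTPase-activating protein for ARF proteins, was at least 4.13-fold higher, with -4.38 and -3.63 on the siRNA arrays (adjusted p = 0.0157). LOC285045 was at least 3.47-fold higher, FAM83B, a scaffold of the EGFR and RAS pathway, at least 3.16-fold, and SPON1, a secreted matrix protein, at least 2.50-fold. ENST00000440768 was at least 3.36-fold higher, and a probe with no gene name at least 2.91-fold. IQCF1 was at least 3.31-fold higher on 1 probe, and its other probe was not called. In the other direction C1QTNF8 was at least 3.18-fold lower, LCN2, the iron-scavenging lipocalin, at least 2.60-fold and KPNA7, an importin, at least 2.00-fold. OR10R3P, an olfactory receptor pseudogene, was at least 2.85-fold lower, and FUT8-AS1 at least 2.52-fold. NUAK1, a kinase related to AMPK, was at least 2.51-fold lower on a dim probe, while its bright probe had a log2 fold change of -0.35 that did not pass. With normexp background correction none of these lower genes passed, with log2 fold changes from -0.055 for OR10R3P to 0.056 for KPNA7, and neither did IQCF1, FAM83B, SPON1 or the unnamed probe. In all, 14 lower and 20 higher called probes had a group without signal above background.

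Several genes were called by all of their probes. HYI, hydroxypyruvate isomerase, had log2 fold changes of -0.96 and -0.95. AMT, of the glycine cleavage system, had -0.92 and -0.81, LAMB2, a laminin chain of basement membranes, -0.96 and -0.75, and RAB17, an epithelial trafficking GTPase, -0.79 and -0.64. AMT and RAB17 did not pass with normexp. Among rises were YBX3, a cold-shock domain protein that binds mRNA, at 0.77 and 0.88, HIC2, a transcriptional repressor, at 0.70 and 0.97, and POLR3G, a subunit of RNA polymerase III, at 0.67 and 0.72. CASTOR1, the arginine sensor of the mTORC1 pathway, rose by 0.64 and 0.69. Its probes overlap (hg18 chr22:29011123-29011182 and chr22:29011135-29011194), so both read almost the same stretch. ARHGAP5-AS1 rose by 0.67 and 0.93, and FAM27C by 0.90 and 0.89. YBX3 had levels of 4.93 and 4.87 against 4.08 and 4.17 on its brighter probe, with both siRNA arrays above both parental arrays. GPER1, a membrane estrogen receptor, and ATAD3B, a mitochondrial ATPase, were picked after their values were seen. GPER1 had levels of 0.014 and -0.074 against 0.98 and 0.97 on the brighter of its 2 called probes. Its log2 fold changes were -0.44 and -0.083 on the probes not called. ATAD3B had 0.94 and 1.00 on called probes that overlap each other, and 0.42 on the other probe.

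Other genes were called on 1 probe while another probe gave a smaller or no change. GFPT1, the rate-limiting enzyme of the hexosamine pathway, had levels of -3.66 and -3.72 against -2.15 and -2.24 on a dim probe (log2 fold change -1.49, adjusted p = 0.0157). Its bright probe, with levels of 0.15 and -0.003 against 0.018 and 0.16, gave -0.014. These probes lie at hg18 chr2:69400951-69401010 and chr2:69406014-69406073. TCAIM, a mitochondrial protein, had -1.97 and -2.09 against -0.44 and -0.40 on its brighter probe (-1.61, adjusted p = 0.0157), and -0.16 on a probe near background. The probes of TCAIM lie far apart, at hg18 chr3:44425684-44425743 and chr3:44375423-44375482. PTAR1, of the protein prenyltransferase family, gave -1.44 and -0.28. MMS22L, a replication fork repair protein, gave -1.41 and -0.13, HIPK1, a nuclear kinase, -1.17 and -0.49, and HAS3, a hyaluronan synthase, 1.18 and -0.14. The groups did not overlap on either HIPK1 probe, whereas in the other genes the uncalled probe had overlapping groups. Among called genes with at least 2 tested probes, all probes had the same sign in 55 of 62 lower (88.7%) and 49 of 69 higher genes (71.0%), against 60.9% of all 3770 such genes. A called probe helps to fix that sign, so the shares are descriptions.

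Genes of the integrated stress response showed the largest shift of the 35 lists examined. This pathway raises translation of the factor ATF4, which induces genes of serine, glycine and cysteine supply, amino acid transport and its own feedback. Of 25 tested members 4 fell (16%) and none rose, against 1.12% lower and 1.17% higher among all tested genes. MTHFD2, the mitochondrial folate enzyme, had levels of 2.44 and 2.33 on the siRNA arrays against 3.14 and 3.38 on the parental arrays (log2 fold change -0.88 ± 0.11, adjusted p = 0.0297). CHAC1, which degrades glutathione, had 0.49 and 0.54 against 1.39 and 1.21 on its bright probe (-0.78 ± 0.097, adjusted p = 0.03) and -0.78 on its dim probe. SLC7A11, the cystine transporter, had -0.53 and -0.62 against 0.081 and 0.21 (-0.72 ± 0.094, adjusted p = 0.0315). CTH, which makes cysteine from cystathionine, had 0.82 and 0.71 against 1.47 and 1.42 (-0.67 ± 0.085, adjusted p = 0.0315). The replicates of each of these genes differed by less than the distance between the groups.

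Further members were lower without passing the test. Serine synthesis enzymes PHGDH and PSAT1 had -0.62 and -0.57, with adjusted p-values of 0.0837 and 0.0583, while PSPH had -0.22. TRIB3, a pseudokinase induced by ATF4, had -0.51, NUPR1 had -0.50, ATF4 itself had -0.41, asparagine synthetase ASNS had -0.40 and ATF5 had -0.31. CEBPB at 0.24 and SLC7A5 at 0.11 lay on the other side. Both siRNA arrays were below both parental arrays for 15 of the 25 genes and above them for 1, against 23.3% and 28.2% of all tested genes. Relative to all genes the median of the list was -0.32, and it stayed between -0.37 and -0.27 under the 20 alternatives. By array its genes deviated from their own means by a median of -0.19 and -0.15 after siRNA, against 0.17 and 0.13 in parental cells. In Capan-1 the same median was 0.079, and the difference between the lines did not pass for any of the 4 called genes (adjusted p from 0.131 to 0.239). Of 23 tRNA synthetases and cofactors, several of which are also ATF4 targets, none was called, 19 were below 0 and the median was -0.11 relative to all genes. The 25 genes of the unfolded protein response, the related pathway of the endoplasmic reticulum, had none called and a median of 0.11.

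**Figure D3:**
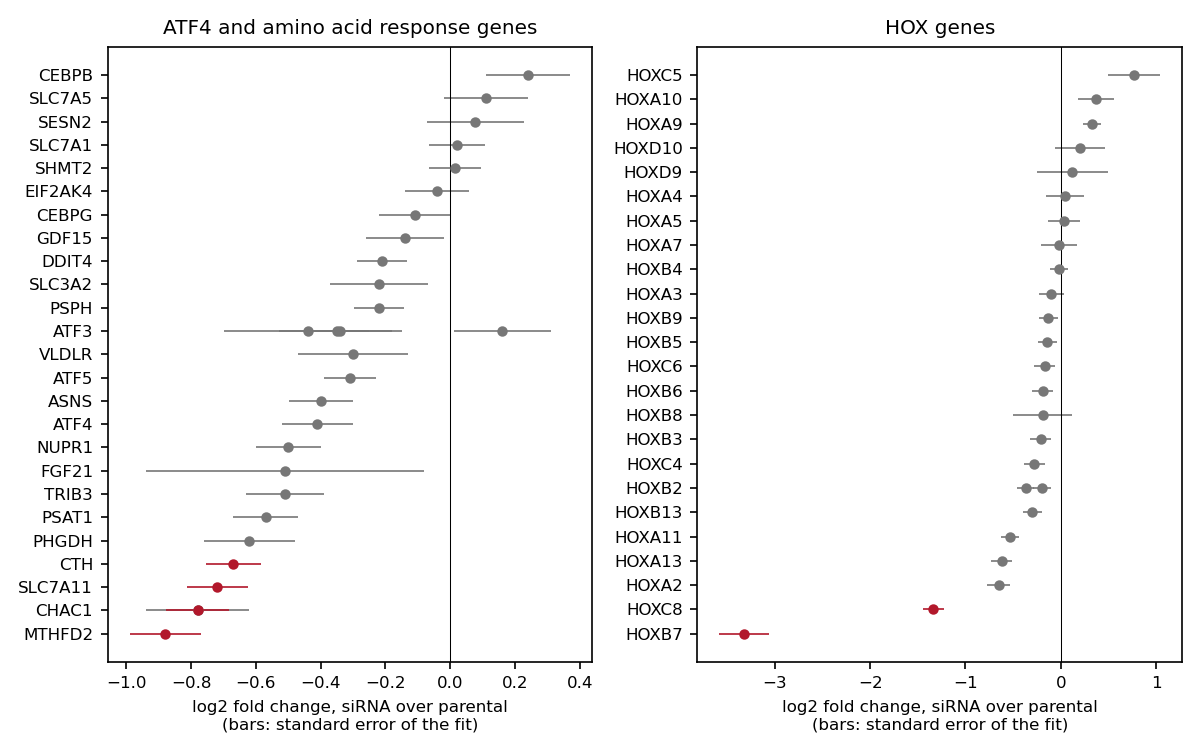
Log2 fold change of siRNA over parental MIA PaCa-2 cells for each tested probe of the integrated stress response list (left) and of the HOX genes (right), with bars for the standard error of the limma fit. Red marks called probes, which are MTHFD2, CHAC1, SLC7A11 and CTH at left and HOXB7 and HOXC8 at right.

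Growth factor and receptor genes were called in both directions. The share called was 17.6% in the EGFR list, 6.9% in the FGF list, 6.25% in the WNT list and 9.09% in the TGF-beta list. Among all tested genes it was 2.30%. Of 17 tested genes of the EGFR family, its ligands and regulators, HBEGF, a membrane-anchored ligand, rose with levels of -2.31 and -1.92 against -3.04 and -3.12 (log2 fold change 0.97, adjusted p = 0.0409). BTC, another EGFR ligand, fell with -3.16 and -3.27 against -2.46 and -2.42 (-0.78, adjusted p = 0.03), and NRG4, a ligand of ERBB4, had -0.83 (adjusted p = 0.0478). With normexp NRG4 turned to 0.037, and BTC, WNT7B and PMEPA1 no longer passed. EGFR had values between 0.062 and 0.28 on 3 probes, none past the test. Of 29 FGF ligands, receptors and feedback genes only FGF2 fell and only DUSP5 rose. WNT7B and WNT10A, secreted WNT ligands, rose by 1.11 and 0.70, the only calls among 32 WNT genes. ITGA6, the laminin-binding integrin chain, rose with 0.13 and 0.13 against -0.83 and -0.56 (0.82, adjusted p = 0.0374), and its other probe had 0.91. Among 22 TGF-beta genes LMCD1 rose and PMEPA1, a feedback inhibitor of the pathway, fell by 0.51.

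Cytokine genes were called in both directions, and 1 immediate early gene rose. CXCL8, the neutrophil chemokine interleukin 8, rose with levels of -1.48 and -1.65 against -2.44 and -2.23 (log2 fold change 0.77, adjusted p = 0.0374). CXCL3, of the same chemokine family, fell with -3.76 and -3.68 against -3.12 and -3.07 (-0.62, adjusted p = 0.0315). CXCL8 and CXCL3 were the only calls among 29 targets of NF-kB (6.9%, against 2.30% of all tested genes). With normexp the CXCL3 log2 fold change was -0.041 (adjusted p = 0.784), which ended the call. Of 25 immediate early genes EGR4 rose (0.74, adjusted p = 0.0408). EGR1 at 0.52, FOS at 0.38, DUSP1 at 0.55 and DUSP2 at 0.59 did not pass, with adjusted p-values from 0.0728 to 0.136. For 14 of these 25 genes the siRNA arrays were the higher pair without overlap, against 28.2% of all tested genes, and the median relative to all genes was 0.18, between 0.10 and 0.20 under the alternatives.

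Called genes of apoptosis and called p53 targets were all lower, and called genes of double-strand break repair were all higher. TNFSF10, the death ligand TRAIL, fell with levels of -0.60 and -0.75 against 0.37 and 0.28 (adjusted p = 0.0204), and its other probe had -0.66 (adjusted p = 0.0735). BIRC5, survivin, an inhibitor of apoptosis that also acts in mitosis, fell with 4.46 and 4.34 against 5.11 and 5.14 (-0.72, adjusted p = 0.0288). These were 2 of 41 tested genes of the BCL2, caspase and inhibitor families, or 4.88%, against 2.30% of all tested genes. BTG2, an antiproliferative gene induced by p53, fell by 0.66 and was the only call among 28 p53 targets. ATM, the kinase of the double-strand break response, rose by 0.69 on 1 probe and had 0.21 on the other, and XRCC2, a DNA repair gene, rose by 0.87, which makes 2 of 23 double-strand break repair genes (8.70%). DICER1, which cuts duplex RNA into small RNAs, rose with 0.36 and 0.22 against -0.50 and -0.32 (0.70, adjusted p = 0.0423), the only call among 20 genes of the small RNA machinery. In Capan-1 its value was 0.82.

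Of 15 fatty acid synthesis genes ACSL3 and ME1 fell, against 1.12% lower among all tested genes, while 8 of the 15 were above 0 and their median was -0.008 relative to all genes. ACSL3, an acyl-CoA synthetase, had levels of -0.005 and -0.078 against 0.94 and 0.83 (log2 fold change -0.92, adjusted p = 0.0289). ME1, the cytosolic malic enzyme that supplies NADPH, had -0.87 and -0.94 against -0.29 and -0.12 (-0.70, adjusted p = 0.033). SREBF1, the factor that drives lipid synthesis genes, had 4.23 and 4.25 against 4.78 and 4.78 (-0.54, adjusted p = 0.0498), while a dim probe gave 0.18. It was the only call among 26 cholesterol synthesis genes, of which 13 were below and 13 above 0. Among 23 NRF2 targets ABCC3, ME1 and SLC7A11 were lower (13%) and none higher, against 1.12% lower and 1.17% higher among all tested genes. Of these, ME1 is also in the fatty acid list and SLC7A11 is also in the stress response list. The NRF2 median was -0.13 relative to all genes, but HMOX1 had 0.45 and GCLM 0.30, neither past the test. HSPA2 fell by 0.81, the only call among 28 heat shock genes, and did not pass with normexp. CH25H was the only call among 16 oxysterol and sterol efflux genes.

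Besides YBX3, genes of the insulin-like growth factor 2 mRNA-binding protein family rose. IGF2BP3 had levels of 5.89 and 5.76 on the siRNA arrays against 5.18 and 5.03 on the parental arrays (log2 fold change 0.72, adjusted p = 0.0332). IGF2BP2 had 2.34 and 2.26 against 1.70 and 1.76 (0.57, adjusted p = 0.0384), and its other probe had 0.50 (adjusted p = 0.151). These 3 genes were the calls among 28 RNA-binding and translation regulators (10.7%), with none lower. Among all tested genes 1.17% were higher and 1.12% lower.

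Of the 35 lists, 25 held a called gene and 10 held none, among them YAP and TEAD targets, epithelial and mesenchymal genes, hypoxia and glycolysis genes, angiogenic factors and mitochondrial complex I. The lists together held 837 tested genes, of which 23 were lower and 17 higher. That is 4.78% called, against 2.30% of all tested genes. Members and lists were chosen with earlier results of these data known, so this share is a description. The median relative to all genes stayed below 0 under every alternative in 10 lists, stayed above it in 5 and changed side in 20. Without scaling between arrays the median of all tested genes was -0.19, against 0.022 with scaling, so list values are given relative to all genes.

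**Figure D4:**
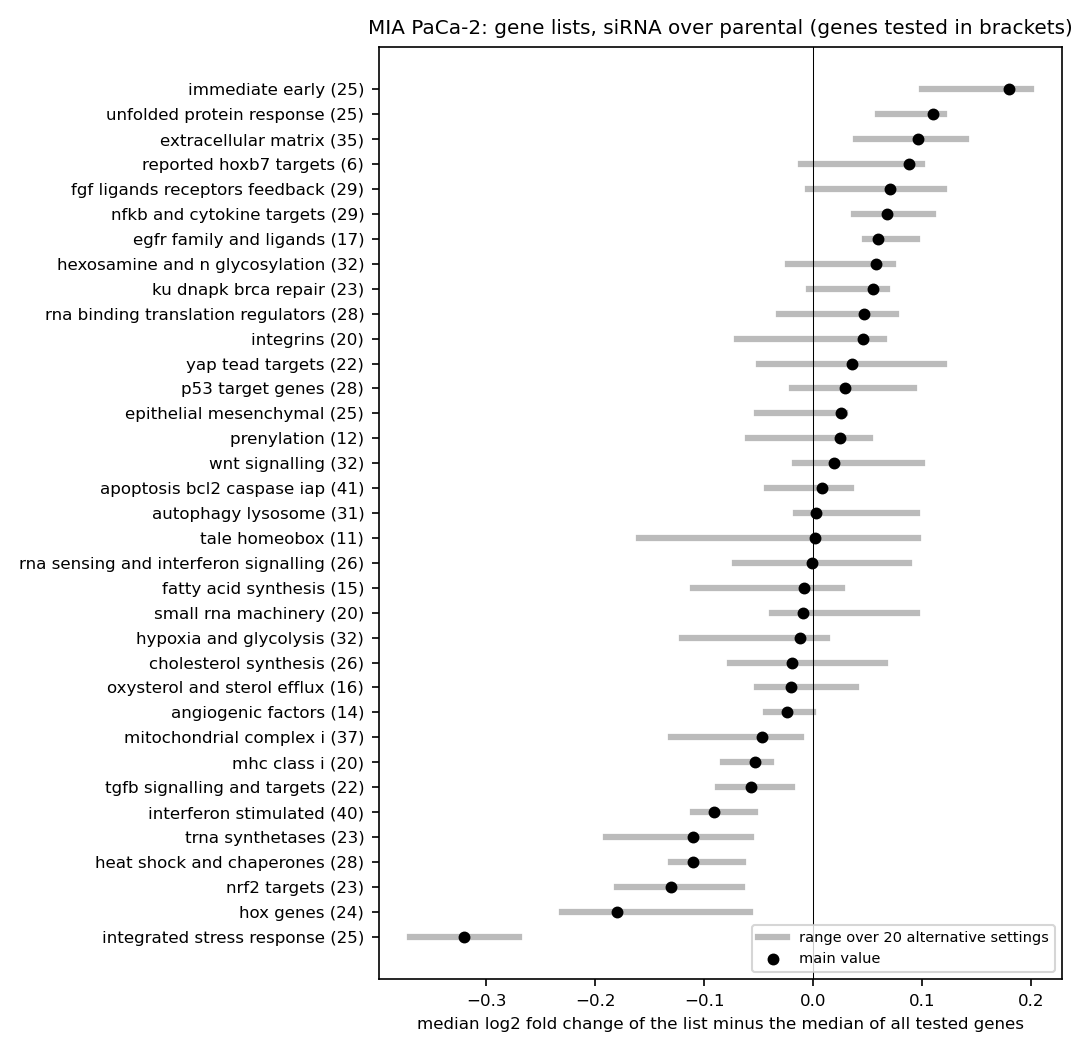
For each of the 35 gene lists the black point gives the median log2 fold change of its tested genes in MIA PaCa-2 minus the median of all tested genes, and the gray bar the range over 20 alternative settings. The integrated stress response list lies lowest at -0.32 and the immediate early list highest at 0.18, and most bars cross 0.

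Genes named by the study were next read in these arrays. VEGFA, the vascular growth factor, had levels of 0.015 and -0.16 against -0.29 and -0.40 on its bright probe, a log2 fold change of 0.27 that did not pass (adjusted p = 0.332), and -0.23 on the other. MMP9, a matrix metalloproteinase, had 0.29 (adjusted p = 0.266), and MMP2 and ANGPT2 had no probe that passed the filter. The proapoptotic BAX had 0.16 and 0.019 and BAD -0.20, and the antiapoptotic BCL2 had -0.15 and 0.10 on its probes. CCND1, cyclin D1, had 0.13 (adjusted p = 0.544). Without scaling, BAX (-0.052), BCL2 (-0.12) and CCND1 (-0.082) changed sign, so no direction is given for them.

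Called probes were spread over the transcript classes and the genome. Of protein-coding probes 192 were lower and 159 higher. Long noncoding RNAs had 8 lower and 17 higher of 566 probes, or 1.41% lower and 3% higher, against 1.04% and 0.857% of protein-coding probes. Probes without a RefSeq match had 19 lower and 54 higher of 4050, or 0.469% and 1.33%. Over all tested probes 222 of 23719 were lower and 233 higher. By intensity the lower share was 0.923%, 1.11% and 0.771% from the dimmest to the brightest class of equal size, and the higher share 1.25%, 1.11% and 0.582%. Chromosome 4, which carries FGF2, BTC, CXCL3 and TLR3, had the highest share of lower probes, 2.16% of 742, and chromosome X had 0.362% of 829. That is 16 lower probes on chromosome 4, among them the overlapping FGF2 probes, and the difference between chromosomes was not tested.

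The same contrast in Capan-1 called no probe of those called in MIA PaCa-2. Where a called probe was measured in both lines, the Capan-1 value had the same sign for 168 of 213 lower (78.9%) and 166 of 212 higher probes (78.3%), against 61.5% of all probes measured in both. The median Capan-1 log2 fold change was -0.20 for the lower and 0.19 for the higher probes. Slides of both lines have the same layout, so shared slide position cannot be told apart from shared response. MMS22L, at -1.41 and -1.31 in MIA PaCa-2 and Capan-1, TCAIM, at -1.61 and -1.06, and POLR3G, at 0.72 in each line on 1 probe, had the same sign in both. FGF2 was not measured above background in Capan-1, and IFI27 had 0.21 there. The difference between the lines passed the test for 2 of 20572 genes (0.00972%), which are LOC401098 and OR10R3P, and was at an adjusted p of 0.0859 for IFI27.

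**Figure D5:**
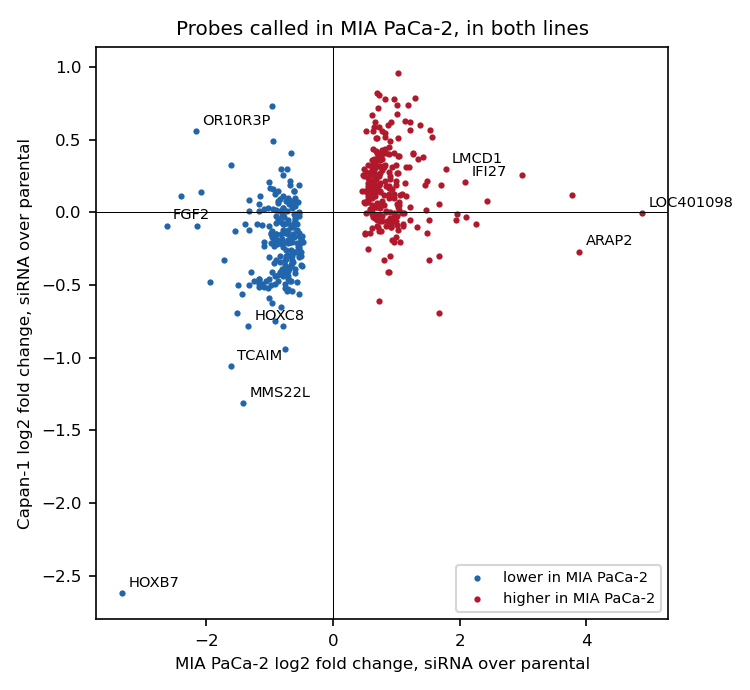
Each point is 1 of the 455 probes called in MIA PaCa-2, with its log2 fold change in MIA PaCa-2 on the horizontal axis and in Capan-1 on the vertical axis, including probes dim in Capan-1. HOXB7 lies low in both lines (-3.32 and -2.62), whereas FGF2, IFI27 and LOC401098 lie near 0 on the vertical axis.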

How the data were processed

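Arrays were grouped by their titles. Per the labels and file headers, the authors scanned one-color arrays with Agilent Feature Extraction 9.5.3 and deposited each spot's background-subtracted intensity, with a second file of its log2 that was not scaled between arrays. Here outlier spots were left out, log2 intensities were averaged per probe (34127 probes on 43118 spots), and the 75th percentile of the array was subtracted. Probes well above background on both arrays of a MIA PaCa-2 group were tested. A group-means model of all 8 arrays (limma 3.58.1, R 4.3.3; lmFit and eBayes, two-sided, Benjamini-Hochberg) gave the p-values. Data were simulated for this comparison on 25448 probes, those above background in any of the 4 groups with a value on every array. Recovery was 43% for 200 probes shifted by 1 (log2) and 84.5% for a shift of 2, with 6 and 12 false calls. There were 0 calls when nothing was changed. The noise was drawn independently, with the spread of each probe pooled over both lines. It held no effect of slide position and no background floor, so these values need not hold for the real arrays.

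Named genes are HOXB7, those the study names, the 15 largest falls and rises, the 8 largest bounds in each direction, genes with all probes called and called list members. Members and lists were chosen with earlier results of these data known. A bound uses, on each array, the lowest signal called above background. The number of arrays limits the precision, 69.2 to 74.3% of spots were well above background and no spot was saturated. Names came from accessions for 25102 probes and from the files for 7500. Probe coordinates are the files' (hg18), promoter windows RefSeq's (GRCh38.p14). Alternatives were the background correction, scaling, outlier spots, the deposited log2 values, the filter, the arrays fitted, a replicate block, an intensity trend, the probes used for the spread (chosen after seeing the data), each array left out and the interval of the parental arrays.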

Additional observations from a re-analysis of the deposited data

Results flagged for a closer look

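The test of the difference between the lines passed for LOC401098 and OR10R3P, each on a probe with dim signals. For LOC401098 the MIA PaCa-2 log2 fold change was 4.88 against -0.004 in Capan-1, and the difference of 4.89 had a limma adjusted p of 0.049. Its probe was well above background on neither MIA PaCa-2 parental array. In Capan-1 it was not well above background on both arrays of either group. Its Capan-1 value therefore compares dim signals and cannot show whether that line responded. For OR10R3P the log2 fold changes were -2.16 and 0.56, a difference of -2.72 with a limma adjusted p of 0.0233. Its probe was well above background on neither MIA PaCa-2 siRNA array. Both values are fitted to dim signals and are no bounds.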

How the results depend on the processing

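Counts of genes lower and higher (215 and 225) moved with the processing. Normexp gave 500 and 438, an intensity trend 654 and 559, quantile scaling 321 lower, no scaling 33 and 14, spike-in scaling 14 and 18, and no filter 5 and 5. The interval of the parental arrays gave 55 and 66. The MIA PaCa-2 arrays alone gave 0 and 0 in limma, and so did the replicate block within each line, with 1874 lower and 2257 higher probes at an unadjusted p under 0.05. Same-numbered arrays did not deviate together (correlation 0.016), so the numbers were not taken as pairs. Leaving out 1 array gave 1 to 185 lower and 2 to 542 higher genes, and without siRNA replicate 1 of MIA PaCa-2 18 of 29 lower and 11 of 72 higher genes were shared with the 215 and 225. With normexp, where an offset is added to every spot, the log2 fold change of HOXB7 in MIA PaCa-2 was -0.098 (limma, adjusted p = 0.599). It was -3.32 with no filter (0.0515), with the MIA PaCa-2 arrays alone (0.111) and with the replicate block (0.169). Leaving out 1 array gave -3.68 to -2.95. With normexp KPNA7 (0.056) and NRG4 (0.037) reversed, and without scaling BAX (-0.052), BCL2 (-0.12) and CCND1 (-0.082) did. Called genes that passed neither without scaling nor with spike-in scaling included CH25H, ACSL3, ME1, SREBF1, DICER1, IGF2BP2 and PMEPA1. Other causes were not tested.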

Other observations

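Some called genes outside the lists were picked after their values were seen. MUC1, a membrane mucin, had levels of 0.065 and 0.10 on the siRNA arrays against 1.08 and 0.93 on the parental arrays, and fell by 0.92 on the log2 scale (adjusted p = 0.0247 in limma). Another MUC1 probe had -0.52. TSPAN1, a tetraspanin, had 1.73 and 1.63 against 2.66 and 2.54 (-0.92, adjusted p = 0.0203). ELF3, an ETS factor of epithelia, had -0.89 and -0.68 against 0.25 and 0.032 (-0.93, adjusted p = 0.0323). S100P, a calcium-binding protein, fell by 0.62, and MARVELD2, tricellulin of tight junctions, by 0.80 with -0.87 on its other probe (adjusted p = 0.0583). For none of these 5 genes did the difference from Capan-1 pass the test.

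RNA for both subunits of the enzyme that makes S-adenosylmethionine was lower on the called probes. MAT2A, the catalytic subunit, had levels of 1.95 and 1.93 against 2.80 and 2.66 (-0.79, adjusted p = 0.0272), and MAT2B, the regulatory subunit, had 1.00 and 1.00 against 1.72 and 2.02 (-0.87, adjusted p = 0.0336). Other probes gave -0.41 for MAT2A and -0.92 for MAT2B, neither past the threshold. IL15, a cytokine, had -5.68 and -6.12 against -3.32 and -3.69 (-2.39, adjusted p = 0.0172), near background after siRNA. CD59, an inhibitor of complement, rose with -1.87 and -2.01 against -3.05 and -3.14 (1.16, adjusted p = 0.0176).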
